A study of Homo sapiens with 12 samples.

Results

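The transcripts described here encode kinases and regulators of the mTOR pathway, measured in human neurons that differed at the LLPH locus. The genes were chosen by name, as MTOR, RPTOR, RICTOR, TSC1, TSC2, EIF4EBP2, LARP1, RPS6KB1, RHEB and AKT1, and each was matched through the names that the authors' deposited table gives to transcript identifiers. Of these 10 genes, 9 had a named transcript among the 19972 transcripts counted, of which 10872 carry a name. MTOR itself was not analysed here.

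The cells were human induced neurons made from the H1 embryonic stem cell line by overexpression of Ngn2, a transcription factor that drives neuronal differentiation. They were either homozygous for the Nterm allele of LLPH (Nterm/Nterm) or wild type at this gene (wt/wt), and the labels do not say what the Nterm allele changes in the protein. Cells of both genotypes were grown without added glia to day 14, in medium with 2 µg/mL doxycycline and 4 µM cytosine arabinoside, an agent against dividing cells, and were harvested in cycloheximide, a blocker of translation elongation, at 100 µg/mL. Each genotype had 3 RNA-seq libraries of polyA RNA and 3 Ribo-seq libraries, which count footprints, the stretches of mRNA covered by ribosomes. Whether the replicates came from separate clones or cultures is not stated, so each p-value reflects no more than the spread among these libraries.

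The Nterm/Nterm RNA libraries held 18944427 to 21478215 counts and the wt/wt RNA libraries 21834425 to 25089790, so the genotypes did not overlap in RNA depth. Footprint libraries held 12652833 to 15177310 counts in Nterm/Nterm and 13155130 to 16356419 in wt/wt. The genotype tag of the 6 Ribo-seq samples names the opposite genotype to their titles and descriptions, and every footprint direction below rests on the titles. LLPH footprints, the check of the targeted gene, were 3.12, 1.71 and 2.37 CPM (counts scaled to library size) in Nterm/Nterm neurons and 6.72, 7.92 and 7.07 CPM in wt/wt neurons, while LLPH RNA was 30.6 ± 1.14 CPM in Nterm/Nterm and 27.8 ± 0.807 CPM in wt/wt (SD, n = 3 each). All 10 neuronal markers examined were present, and their summed RNA level was 15305 to 16556 CPM in Nterm/Nterm against 13235 to 14158 CPM in wt/wt. Neural progenitor markers, 6 of 7 present, summed to 889 to 1041 CPM of RNA in Nterm/Nterm against 1151 to 1241 CPM in wt/wt, and mesenchymal markers, 4 of 8 present, to 1233 to 1540 CPM against 1868 to 2221 CPM, with 1 of the 4 called higher and 3 lower in Nterm/Nterm. In footprints the sums of progenitor and mesenchymal markers overlapped. Progenitor markers summed to 1328 to 1566 CPM in Nterm/Nterm against 1351 to 1688 CPM in wt/wt. Mesenchymal markers summed to 1858 to 2452 CPM against 2363 to 2845 CPM. Proliferation markers, 3 of 6 present, summed to 100.2 to 117 CPM of RNA in Nterm/Nterm against 129 to 146 CPM in wt/wt. Pluripotency markers, 2 of 5 present, summed to 410.4 to 487 CPM of RNA against 566 to 631 CPM. Those present were LIN28A and CDH1, while POU5F1, NANOG and DPPA4 had no named transcript. Footprint sums of the remaining lists did not overlap. In Nterm/Nterm against wt/wt, neuronal markers had 7353 to 7465 against 5259 to 6875 CPM of footprints. Proliferation markers had 231 to 272 against 276 to 323 CPM, and pluripotency markers 655 to 809 against 856 to 896 CPM. None of the 7 glial markers had a named transcript. The part of these marker and depth differences in the changes below was not tested, and in such bulk libraries fewer cells of a type and less RNA per cell cannot be told apart.

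As background, mTOR is a protein kinase that works in a pair of complexes. The complex built on RPTOR promotes protein synthesis when growth factors and amino acids are available, and the complex built on RICTOR phosphorylates AKT1 and related kinases. Growth factor signals reach the first complex through AKT1, which inhibits the TSC1-TSC2 complex. That complex in turn switches off the small GTPase RHEB, the direct activator of mTOR. The output runs through the kinase encoded by RPS6KB1, through the 4E-BP proteins that block the cap-binding factor eIF4E, and through LARP1, which binds mRNAs with a terminal oligopyrimidine (TOP) start. In neurons this pathway is known for control of cell size, axon and dendrite growth and synaptic protein synthesis, and loss of TSC1 or TSC2 causes tuberous sclerosis.

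TOP mRNAs, mainly those of ribosomal proteins and elongation factors, begin with a cytosine followed by a run of pyrimidines, and this start is the feature through which the pathway controls them. The transcription starts of the members were therefore set beside those of RPS6, a ribosomal protein, and EEF2, the elongation factor that moves the ribosome along the mRNA. The sequences are RefSeq's for assembly GRCh38.p14, matched by gene symbol, which found all 9 members. Each line gives the first 30 bases of the transcript in the sense direction, except for TSC2, whose line begins 125 bases before its first annotated start. Capitals mark the pyrimidine run at the start in RPS6 and EEF2, the letters ATGGCG in TSC1, RPTOR, RICTOR and RPS6KB1, and the letters CACGTG in TSC2.
RPS6 (chr9:19380207-19380236, minus strand): CTCTTTTCCgtggcgcctcggaggcgttca
EEF2 (chr19:3985434-3985463, minus strand): CTCTTCCgccgtcgtcgccgccatcctcgg
TSC1 (chr9:132944587-132944616, minus strand): gtacgtccaagATGGCGgcgccctgtaggc
RPTOR (chr17:80544838-80544867, plus strand): gtcctggcaatATGGCGtcctccttgatgg
RICTOR (chr5:39074370-39074399, minus strand): gttgtgactgaaacccgtcaatATGGCGgc
RPS6KB1 (chr17:59893121-59893150, plus strand): gcactgagcctaagcagccggtgATGGCGg
EIF4EBP2 (chr10:70404145-70404174, plus strand): gcttccggtcgtcgtcgtcgccgctgctgc
TSC2 (chr16:2047860-2047889, plus strand): tgcggccccgtCACGTGatgcaaggatcgc

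None of the 14 annotated starts of the 9 members began with a cytosine followed by 4 pyrimidines. Among TOP mRNAs with a RefSeq start, 56 of 73 genes (76.7%) had at least 1 such start, against 5.14% of all 27305 genes. Over the 300 bases from 250 before to 50 after each start, ATGGCG on either strand, which is the core letters that the factor YY1 is known to bind, was found at 7 of the 9 members: RPTOR, RICTOR, TSC1, TSC2, RHEB, RPS6KB1 and LARP1. The letters were found in 12.7% of all genes and 41.1% of the TOP genes. Counted per start, they were found at 7 of the 14 starts of the members, against 10.7% of all starts. In TSC1, RPTOR and the second annotated start of TSC2 they began at base 12 of the transcript, in RICTOR at base 23 and in RPS6KB1 at base 24. The E-box CACGTG, a palindrome whose letters are shared by the binding sites of MYC and TFEB, was found only at TSC2 among the members and in 8.77% of all genes. These matches describe letters in a window and do not show that a factor binds there. Both ATGGCG and CACGTG were searched after the sequences were seen, so their shares are no test of the members.

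The adaptor subunits of the mTOR complexes did not pass the test for a change between genotypes, in RNA or in footprints. RPTOR, the substrate-binding subunit of the first complex, had 54.4, 57.5 and 56.3 CPM of RNA in Nterm/Nterm neurons and 57.7, 56.9 and 55.4 CPM in wt/wt neurons. Its footprints were 58.8, 64.5 and 63.9 CPM in Nterm/Nterm and 62.3, 64.7 and 66.4 CPM in wt/wt. The genotypes overlapped in both assays, and the log2 change, Nterm/Nterm minus wt/wt, was -0.01 ± 0.05 (SE) for RNA and -0.05 ± 0.07 for footprints.

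RICTOR, the defining subunit of the second complex, had 55.1, 58.5 and 54.5 CPM of RNA in Nterm/Nterm and 56.4, 56.5 and 55.4 CPM in wt/wt. RICTOR footprints were 101.3, 104 and 114 CPM in Nterm/Nterm and 123, 106 and 109 CPM in wt/wt. The genotypes overlapped again, with a log2 footprint change of -0.08 and a 95% interval of -0.23 to 0.07.

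AKT1, the growth factor-regulated kinase upstream of the TSC complex, had 151 to 155 CPM of RNA in Nterm/Nterm and 149.8 to 154 CPM in wt/wt. Its footprints spread more widely than its RNA, at 67.8, 78.1 and 62.8 CPM in Nterm/Nterm and 57.7, 72.0 and 66.7 CPM in wt/wt. The log2 changes were 0.02 ± 0.04 for RNA and 0.08 ± 0.09 for footprints, and neither passed the test.

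TSC1 and TSC2 together form the brake on RHEB, and TSC1 RNA was higher in Nterm/Nterm neurons. TSC1, which stabilises TSC2, had 84.3, 88.3 and 94.8 CPM of RNA in Nterm/Nterm neurons against 74.9, 74.7 and 79.4 CPM in wt/wt neurons. Every Nterm/Nterm library lay above every wt/wt library. The log2 change was 0.22 ± 0.05 (SE, 95% interval 0.11 to 0.34), a 16.8% higher level, with an adjusted p of 0.0135 in edgeR's quasi-likelihood test over 14659 transcripts. The call was lost in 2 of the 6 fits that left out 1 library, with an adjusted p of 0.078 without wt/wt RNA library 1 and 0.0746 without wt/wt RNA library 2.

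TSC2, the subunit that acts as the GTPase-activating protein for RHEB, had 117, 105 and 121 CPM of RNA in Nterm/Nterm and 113, 115 and 117 CPM in wt/wt. These overlapped, with a log2 change of -0.01 ± 0.05. The ratio of TSC1 to TSC2 counts within each library removes the scaling between libraries. In RNA it was 0.720, 0.840 and 0.782 in Nterm/Nterm and 0.660, 0.647 and 0.679 in wt/wt. The genotypes did not overlap, and the two-sided exact permutation p was 0.1, the smallest that 3 libraries against 3 allow.

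In footprints the TSC1 to TSC2 ratio was 0.327, 0.353 and 0.381 in Nterm/Nterm and 0.354, 0.349 and 0.370 in wt/wt, with an exact permutation p of 0.9. TSC1 footprints were 55.5, 61.8 and 67.6 CPM in Nterm/Nterm and 57.0, 54.9 and 61.7 CPM in wt/wt, overlapping, with a log2 change of 0.09 ± 0.08. TSC2 footprints were 169.8, 175 and 178 CPM in Nterm/Nterm and 161, 157 and 167 CPM in wt/wt. The TSC2 footprint values did not overlap between genotypes, but the log2 change of 0.11 ± 0.06 had an adjusted p of 0.289 in edgeR's test.

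RHEB, the GTPase that activates mTOR, was the member with the lowest fitted RNA change. It had 104, 109 and 95.6 CPM of RNA in Nterm/Nterm and 114, 114 and 108 CPM in wt/wt, so only the highest Nterm/Nterm library reached into the wt/wt range. The log2 change was -0.12 ± 0.05, with an adjusted p of 0.133. RHEB footprints were 132, 115 and 115 CPM in Nterm/Nterm and 142, 128 and 125 CPM in wt/wt, overlapping, with a log2 change of -0.13 ± 0.07 and an adjusted p of 0.277.

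**Figure D1:**
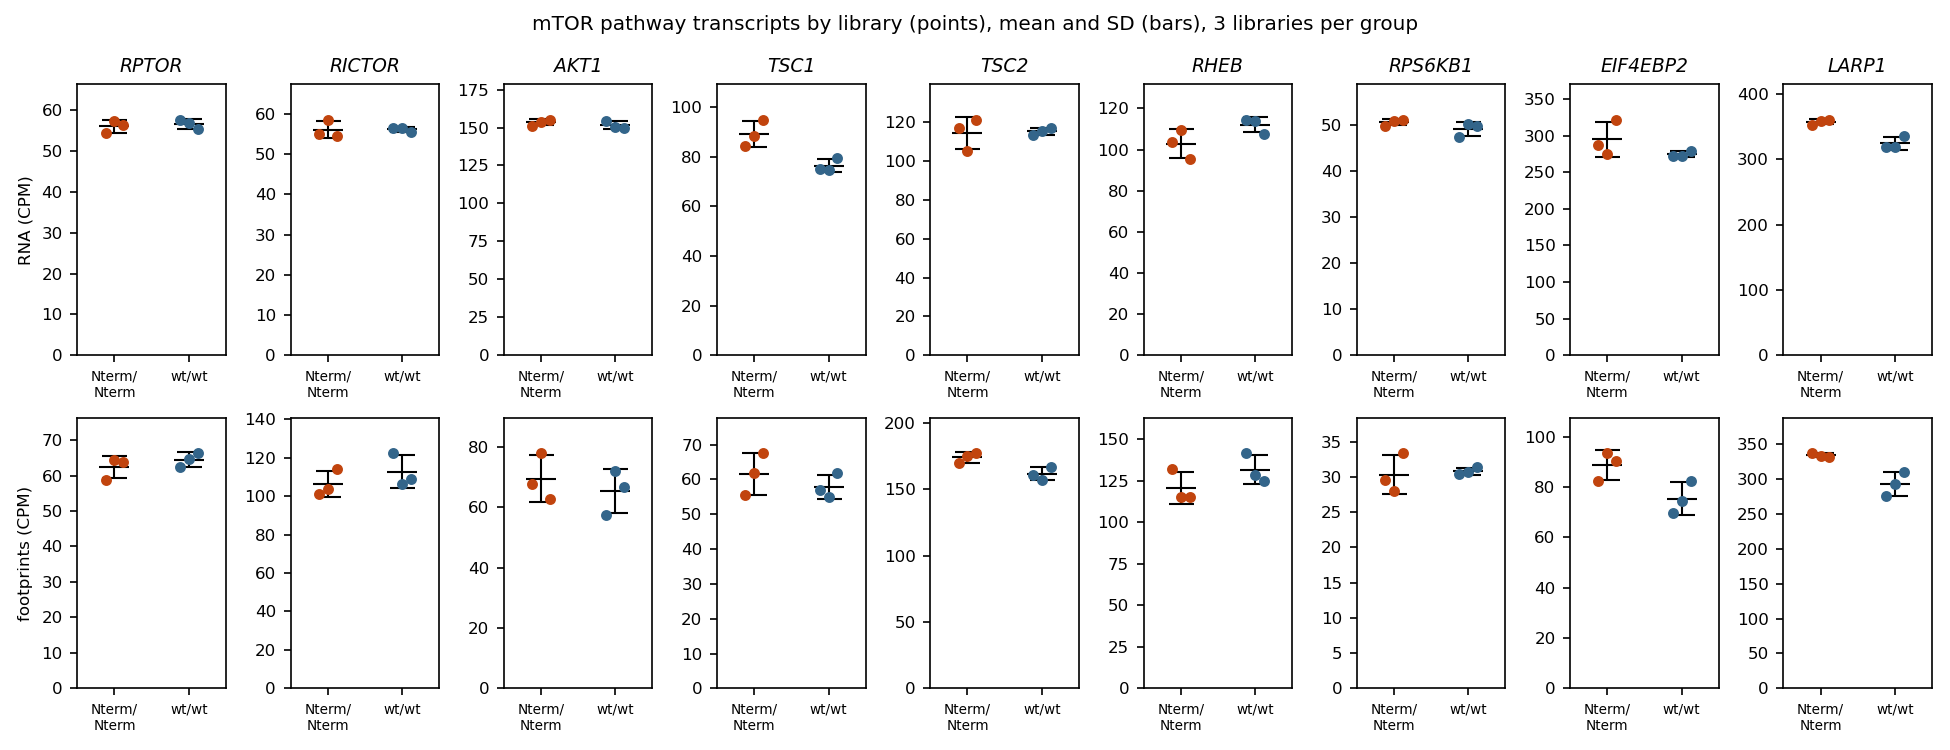
RNA (top row) and footprint (bottom row) levels in CPM of the 9 members, with Nterm/Nterm left of wt/wt, 1 point per library and bars for the mean and SD of 3 libraries. TSC1 and LARP1 RNA, and TSC2 and LARP1 footprints, show no overlap between the genotypes.

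Downstream of mTOR, LARP1 RNA and EIF4EBP2 footprints were higher in Nterm/Nterm neurons. LARP1, the binder of TOP mRNAs, had 353, 359 and 360.3 CPM of RNA in Nterm/Nterm against 319, 318 and 335 CPM in wt/wt. All 3 Nterm/Nterm libraries were above all 3 wt/wt libraries. The log2 change was 0.14 ± 0.04 (95% interval 0.05 to 0.22), a 10.2% higher level, with an adjusted p of 0.0285, over the same 14659 transcripts. The call was lost in 4 of 6 fits, with an adjusted p of 0.059 and 0.0511 without Nterm/Nterm RNA libraries 1 and 2, and of 0.137 and 0.146 without wt/wt RNA libraries 1 and 2.

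LARP1 footprints were 337, 333 and 332 CPM in Nterm/Nterm and 276, 292 and 309.98 CPM in wt/wt, again with no overlap. The log2 change of 0.19 ± 0.07 had an adjusted p of 0.0731 in edgeR's quasi-likelihood test and of 0.0477 in DESeq2, and 0.0387 in edgeR without wt/wt footprint library 3, so the call for LARP1 footprints turned on the test and on that library.

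EIF4EBP2 encodes 4E-BP2, the main 4E-BP protein of the brain, which holds eIF4E inactive until mTOR phosphorylates it. Its footprints were 82.2, 93.5 and 90.5 CPM in Nterm/Nterm against 69.5, 74.3 and 82.3 CPM in wt/wt. The highest wt/wt library lay just above the lowest Nterm/Nterm library. The log2 change was 0.24 ± 0.08 (95% interval 0.08 to 0.39), a 17.7% higher level, with an adjusted p of 0.044 in edgeR's test over 13566 transcripts. This call was lost in DESeq2 (adjusted p = 0.0619) and in 4 of the 6 fits that left out 1 library. The adjusted p was then 0.14 and 0.114 without Nterm/Nterm footprint libraries 2 and 3, and 0.213 and 0.151 without wt/wt footprint libraries 1 and 2.

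EIF4EBP2 RNA was 287, 275 and 321 CPM in Nterm/Nterm and 272, 272 and 279 CPM in wt/wt. The Nterm/Nterm library at 275 CPM fell within the wt/wt range, and the log2 change of 0.10 ± 0.05 had an adjusted p of 0.199. RPS6KB1, which encodes the kinase of ribosomal protein S6, had 49.9, 50.9 and 51.2 CPM of RNA in Nterm/Nterm and 47.4, 50.3 and 49.8 CPM in wt/wt. RPS6KB1 footprints were 28.0 to 33.4 CPM in Nterm/Nterm and 30.5 to 31.4 CPM in wt/wt. The genotypes overlapped in both assays, with log2 changes of 0.04 ± 0.05 for RNA and -0.02 ± 0.09 for footprints.

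In counts, 2 of 9 members had higher RNA in Nterm/Nterm and 0 lower, where 7.25% of all transcripts tested were called higher and 10.6% lower. The median log2 RNA change was 0.02 over the members and 0.00 over all transcripts. In footprints 1 of 9 was higher and 0 lower, against 4.36% higher and 8.91% lower among all transcripts, with medians of 0.08 over the members and 0.01 over all. At an unadjusted p under 0.05, 3 members differed in RNA, against 32.3% of all transcripts, and 2 in footprints, against 27.3%. The RNA of 2 members (TSC1 and LARP1) did not overlap between genotypes, against 36.2% of all transcripts, and neither did the footprints of 2 (TSC2 and LARP1), against 30.7%.

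The labels do not say whether equal replicate numbers pair the libraries. Same-numbered RNA libraries of the genotypes correlated weakly (r = 0.113, 0.12 and 0.248), which passed the rule for pairing given in the processing section. With that number as a block 3 members were higher and 1 was lower in RNA, against 14.3% and 16.4% of all transcripts. In that fit EIF4EBP2 RNA was higher by 0.10 ± 0.03 on the log2 scale (adjusted p = 0.0188) and RHEB RNA lower, at -0.12 ± 0.04 (adjusted p = 0.0138). TSC1 and LARP1 were called there too, with adjusted p of 0.000142 and 0.000416.

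Translational efficiency is the footprint level of a transcript divided by its RNA level, here computed from the libraries of the same replicate number, so that the length of the transcript cancels. No source used here says which part of each transcript was counted, and the ratio depends on it. In wt/wt the numbers did not pair the assays, so the single ratios, their spread and their overlap depend on this matching. RICTOR had the highest efficiency, at 1.84, 1.78 and 2.09 in Nterm/Nterm and 2.17, 1.88 and 1.97 in wt/wt. EIF4EBP2 had the lowest, at 0.286, 0.340 and 0.281 in Nterm/Nterm and 0.256, 0.273 and 0.295 in wt/wt. The highest mean was thus 6.29 times the lowest in Nterm/Nterm and 7.31 times in wt/wt.

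Both orders were the same from top to bottom, and 0 of the 9 members changed rank between genotypes. After RICTOR came TSC2, at 1.53 ± 0.120 in Nterm/Nterm and 1.403 ± 0.0350 in wt/wt (SD, n = 3 library pairs). RHEB followed at 1.18 ± 0.111 in Nterm/Nterm and 1.18 ± 0.0567 in wt/wt, and RPTOR at 1.11 ± 0.0287 in Nterm/Nterm and 1.14 ± 0.0591 in wt/wt. RHEB and RPTOR were the only neighbours in the order, of 8 pairs, whose library values overlapped, and they did so in both genotypes.

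The lower part of the order held LARP1, at 0.935 ± 0.0188 in Nterm/Nterm and 0.903 ± 0.0334 in wt/wt, and TSC1, at 0.690 ± 0.0289 in Nterm/Nterm and 0.758 ± 0.0214 in wt/wt. RPS6KB1 was at 0.598 ± 0.0521 in Nterm/Nterm and 0.627 ± 0.0169 in wt/wt, and AKT1 at 0.454 ± 0.0514 in Nterm/Nterm and 0.432 ± 0.0535 in wt/wt. The median over all transcripts was 1.17 in Nterm/Nterm and 1.17 in wt/wt. TSC2 lay above it and TSC1 below it in both genotypes, and 3 of the 9 members had a mean above it. RICTOR stood at the 82.5th percentile in Nterm/Nterm and the 85.5th in wt/wt, and EIF4EBP2 at percentile 4.79 in Nterm/Nterm and 4.11 in wt/wt.

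**Figure D2:**
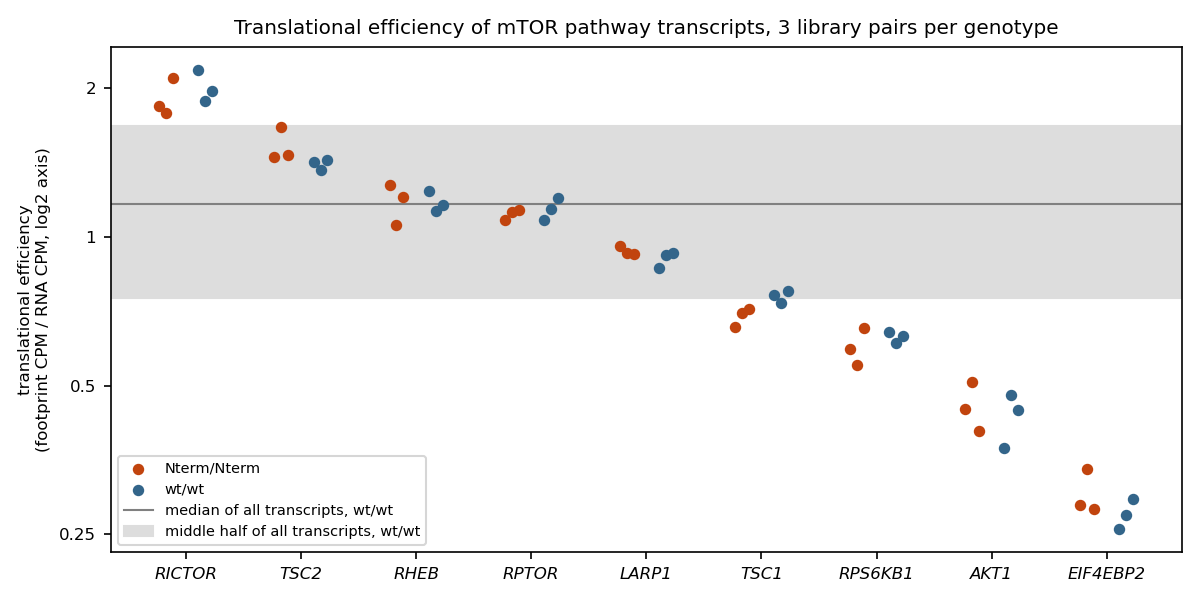
Translational efficiency (footprint CPM over RNA CPM, log2 axis) of the 9 members ordered by their wt/wt mean, with 3 library pairs per genotype, Nterm/Nterm left of wt/wt. The grey line is the median of all transcripts in wt/wt (1.17) and the band their interquartile range, and RICTOR lies above the band while TSC1 in Nterm/Nterm, RPS6KB1, AKT1 and EIF4EBP2 lie below it.

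Footprints were also tested against RNA within each genotype. Each assay was scaled on its own, so higher and lower here compare scaled levels. The median log2 ratio over all transcripts was 0.19 in Nterm/Nterm and 0.22 in wt/wt. In Nterm/Nterm 3 members had footprints higher than RNA (RICTOR, TSC2 and RHEB) and 5 lower, where 80.3% of transcripts were called, 47.9% higher and 32.4% lower. In wt/wt 4 were higher, RPTOR in addition, and 5 lower, where 82.4% were called, 50.4% higher and 32% lower. Of these, RPTOR in wt/wt, at 0.19, lay below the median over all transcripts, and RHEB, at 0.24, just above it. RPTOR in Nterm/Nterm had a log2 ratio of 0.13 ± 0.06 and an adjusted p of 0.0748, which became 0.0223 with the replicate number as a block and 0.0313 without footprint library 1. LARP1 in wt/wt had a log2 ratio of -0.14 ± 0.06 (adjusted p = 0.0424), a call lost without the filter on low counts (adjusted p = 0.059), and also in 4 of the 6 fits without 1 wt/wt library, with an adjusted p of 0.0762, 0.0847 and 0.148 without RNA libraries 1, 2 and 3 and 0.219 without footprint library 1. In Nterm/Nterm the LARP1 call was lost in 3 of 6 such fits, with an adjusted p of 0.0577 and 0.0744 without RNA libraries 1 and 2 and 0.0997 without footprint library 2. The RHEB call in Nterm/Nterm was lost in 2 of 6, with an adjusted p of 0.0617 without RNA library 3 and 0.0811 without footprint library 1. The farthest from equality were EIF4EBP2, at -1.76 ± 0.07 in Nterm/Nterm (adjusted p = 6.95e-12) and -1.86 ± 0.06 in wt/wt (adjusted p = 1.04e-19), and AKT1, at -1.17 ± 0.07 in Nterm/Nterm (adjusted p = 5.16e-10) and -1.20 ± 0.07 in wt/wt (adjusted p = 1.85e-15).

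No member passed the test for a change in translational efficiency between genotypes. The test was the interaction of assay and genotype in edgeR over 13422 transcripts, of which 0.0224% were called. All 9 adjusted p-values were 0.992 or above, 0 of 9 members had an unadjusted p under 0.05, against 4.75% of all transcripts, and 0 were called by limma-voom or by DESeq2, which gave an adjusted p for LARP1 alone. The log2 changes ran from -0.13 ± 0.10 for TSC1 to 0.13 ± 0.10 for EIF4EBP2. The 95% intervals of the 9 members lay between -0.33 and 0.33, so changes beyond 0.793-fold or 1.26-fold lay outside every interval.

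With libraries matched by number, only TSC1 and TSC2 had efficiencies that did not overlap between genotypes. The same held for 13.4% of all transcripts. In wt/wt the numbers did not pair the assays, so this lack of overlap rests on how the libraries were matched. TSC1 had 0.658, 0.700 and 0.714 in Nterm/Nterm against 0.761, 0.735 and 0.777 in wt/wt. TSC2 had 1.45, 1.67 and 1.47 in Nterm/Nterm against 1.42, 1.36 and 1.43 in wt/wt. The fitted log2 changes pointed in opposite directions, at -0.13 for TSC1 and 0.11 ± 0.08 for TSC2, and neither passed the test. The authors' deposited table gave a TSC1 efficiency ratio of 0.903 with an unadjusted p of 0.0309. TSC1 was the 1 member of 9 under 0.05 in the authors' deposited table, where 4.67% of its 10932 transcripts were.

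**Figure D3:**
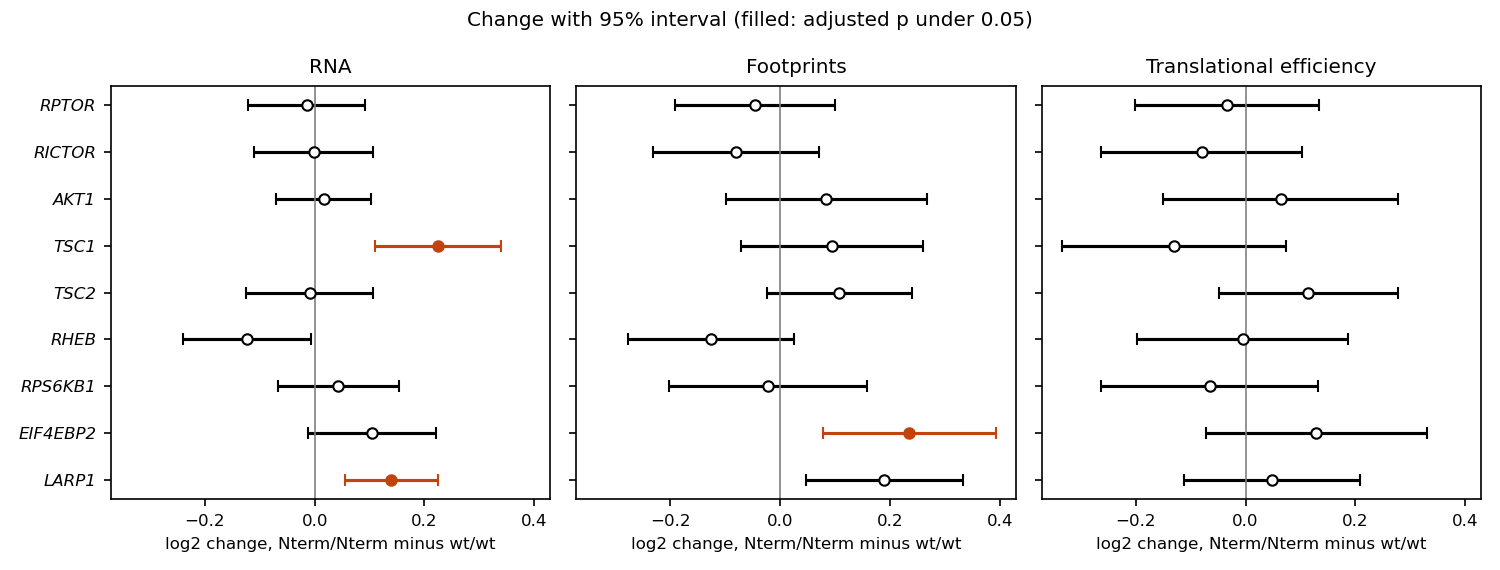
Log2 change, Nterm/Nterm minus wt/wt, with its 95% interval for each member in RNA, footprints and translational efficiency, with filled points where the adjusted p was under 0.05. The filled points are TSC1 and LARP1 in RNA and EIF4EBP2 in footprints, and no point is filled for translational efficiency.

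Around the members, 82 further genes of the pathway were examined in 4 lists. In RNA, 4 of 75 tested were higher in Nterm/Nterm and 8 lower, and in footprints 0 of 73 were higher and 4 lower. The share called was 16% in RNA, where 17.9% of all transcripts were called, and 5.48% in footprints, where 13.3% were. The median log2 change of these genes was -0.01 in RNA and -0.02 in footprints.

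The remaining subunits and assembly factors of the mTOR complexes, such as MLST8, AKT1S1 and MAPKAP1, gave no call in edgeR, DESeq2 or limma-voom. For efficiency DESeq2 gave an adjusted p to only part of the transcripts, so a missing call there can be a missing test. Of the 7 tested, 0 had an unadjusted p under 0.05 in RNA, footprints or efficiency. Their log2 changes ran from -0.11 to 0.05 in RNA and from -0.06 to 0.13 in footprints.

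Among upstream inputs, DDIT4, SESN1 and SESN3, all known as stress-responsive restraints of the first complex, were lower in RNA. DDIT4, which restrains mTOR through the TSC complex under stress, had 84.3, 90.7 and 74.2 CPM of RNA in Nterm/Nterm against 116, 116 and 106 CPM in wt/wt, with no overlap. Its log2 RNA change was -0.44 ± 0.07 (adjusted p = 0.00162), while the footprint change of -0.21 ± 0.08 had an adjusted p of 0.0866 in edgeR's test. The footprint value became 0.0413 without the filter on low counts and 0.0333 with the replicate number as a block. The numbers did not pair the footprint libraries of the genotypes. SESN3, a sestrin, had 81.6, 83.2 and 82.5 CPM of RNA in Nterm/Nterm against 100.4, 107 and 97.2 CPM in wt/wt.

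The sestrins are stress-responsive inhibitors of the amino acid branch. SESN3 footprints were 54.1, 60.6 and 55.9 CPM in Nterm/Nterm against 79.6, 74.9 and 65.5 CPM in wt/wt, with a log2 change of -0.37 ± 0.08 (adjusted p = 0.00411). SESN1 fell in both assays as well, by 0.21 in RNA (adjusted p = 0.0321) and by 0.34 in footprints (adjusted p = 0.00569) on the log2 scale. SESN2 did not pass in either, at -0.09 in RNA and 0.05 in footprints. Of the genes for AMP-activated kinase, the energy sensor, the catalytic subunit PRKAA1 was higher in RNA at 0.22 ± 0.06 (adjusted p = 0.0268) and the beta subunit PRKAB1 lower at -0.18 ± 0.05 (adjusted p = 0.0365), a call lost in DESeq2 (adjusted p = 0.0675). Their paralogs did not pass, with RNA changes of 0.02 for PRKAA2 and 0.01 for PRKAB2. In all, 1 of 24 upstream inputs was higher and 4 lower in RNA, and 0 of 23 higher and 2 lower in footprints. Among all transcripts 7.25% were called higher and 10.6% lower in RNA, and 4.36% higher and 8.91% lower in footprints.

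In the amino acid arm, the Rag GTPases, their lysosomal anchor and the GATOR complexes, 1 of 25 genes was higher and 1 lower in RNA. The shares of all transcripts were 7.25% higher and 10.6% lower. RRAGD, a Rag GTPase, was lower in both assays, with 46.2 CPM at most in Nterm/Nterm against 52.5 CPM at least in wt/wt for RNA. Its log2 change was -0.33 ± 0.06 in RNA (adjusted p = 0.00571) and -0.34 ± 0.09 in footprints (adjusted p = 0.0226). FNIP2, a folliculin partner, was higher in RNA by 0.18 ± 0.06 (adjusted p = 0.0481), a call lost in limma-voom (adjusted p = 0.0501).

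Among downstream genes, 2 of 19 were higher and 3 lower in RNA, and 1 of 18 was lower in footprints. The shares of all transcripts were 7.25% higher and 10.6% lower in RNA, and 8.91% lower in footprints. PDCD4, an inhibitor of the helicase eIF4A that the S6 kinase marks for degradation, had an RNA change of -0.34 ± 0.08 (adjusted p = 0.018) and a footprint change of -0.26 ± 0.08 (adjusted p = 0.0365). GRB10, an adaptor that mTOR phosphorylates and that dampens insulin signalling, was higher in RNA by 0.25 ± 0.05 (adjusted p = 0.00909), and RB1CC1, a subunit of the autophagy-starting ULK complex, by 0.13 ± 0.04 (adjusted p = 0.0333). RPS6 and EEF2, whose starts are printed above, were lower in RNA. Their log2 changes were -0.20 ± 0.06 (adjusted p = 0.0338) for RPS6 and -0.16 ± 0.04 (adjusted p = 0.015) for EEF2. Their footprint changes did not pass, at 0.09 for RPS6 and 0.18 for EEF2. Their efficiency changes of 0.28 and 0.33 had an adjusted p of 0.762 each in edgeR, and of 0.0424 and 0.0162 in DESeq2. For efficiency DESeq2 adjusted over only part of the transcripts. RPS6, EEF2 and EIF4B are counted among the TOP mRNAs below as well.

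With the replicate number as a block, the RNA counts became 4 higher and 5 lower among upstream inputs and 4 higher and 1 lower in the amino acid arm. That fit called 14.3% of all transcripts higher and 16.4% lower. Of the 12 RNA calls named here, DDIT4, SESN3 and RRAGD passed in every fit that left out a library. SESN1, PRKAB1, FNIP2 and RPS6 lost the call in 4 of 6, RB1CC1 in 5, PRKAA1 in 3, and PDCD4, GRB10 and EEF2 in 2. Of the 12 calls, 5, 2 and 5 were lost without Nterm/Nterm RNA libraries 1, 2 and 3, and 9, 8 and 1 without wt/wt RNA libraries 1, 2 and 3. In footprints SESN1 and SESN3 passed in all 6 such fits, while RRAGD lost the call without Nterm/Nterm library 3 or wt/wt library 2, and PDCD4 without Nterm/Nterm libraries 2 or 3 or wt/wt libraries 1 or 2.

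The TOP mRNAs, on which LARP1 acts, were lower in RNA as a group and not in footprints. Of 94 tested, 55 were lower and 0 higher in RNA, with a median log2 change of -0.15 and 92 below 0. Among all transcripts 10.6% were called lower and 7.25% higher. With the replicate block 80 were lower, against 16.4% of all transcripts. The count was 5 and 8 without wt/wt RNA libraries 1 and 2, 32 and 33 without Nterm/Nterm RNA libraries 2 and 3, and 55 or more without either of the others. In footprints 0 of 94 were called by edgeR, DESeq2 or limma-voom. An unadjusted p under 0.05 was found for 15 of 94, against 27.3% of all transcripts. The footprint median was 0.10, with 89 above 0. Without wt/wt footprint library 3, 6 were called higher, and without the filter on low counts 1 was. This direction did not turn under any of the scalings tried, without scaling included, where the footprint median was 0.07.

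In translational efficiency the TOP median was 0.25, against 0.01 over all transcripts, and all 94 lay above 0. None of the 94 passed edgeR's test or limma-voom. In edgeR 75 had an unadjusted p under 0.05, against 4.75% of all transcripts. DESeq2 called 30 of the 94 higher, where it called 37 transcripts in all. It gave an adjusted p to only part of the transcripts, and among the 9 members to LARP1 alone. The 30 of 37 is therefore no share over all transcripts. The 9 members, none of which has a TOP start in RefSeq, had a median efficiency change of -0.01, with 4 of 9 above 0. The TOP genes were chosen with earlier results of these data known, and their direction is not independent evidence.

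**Figure D4:**
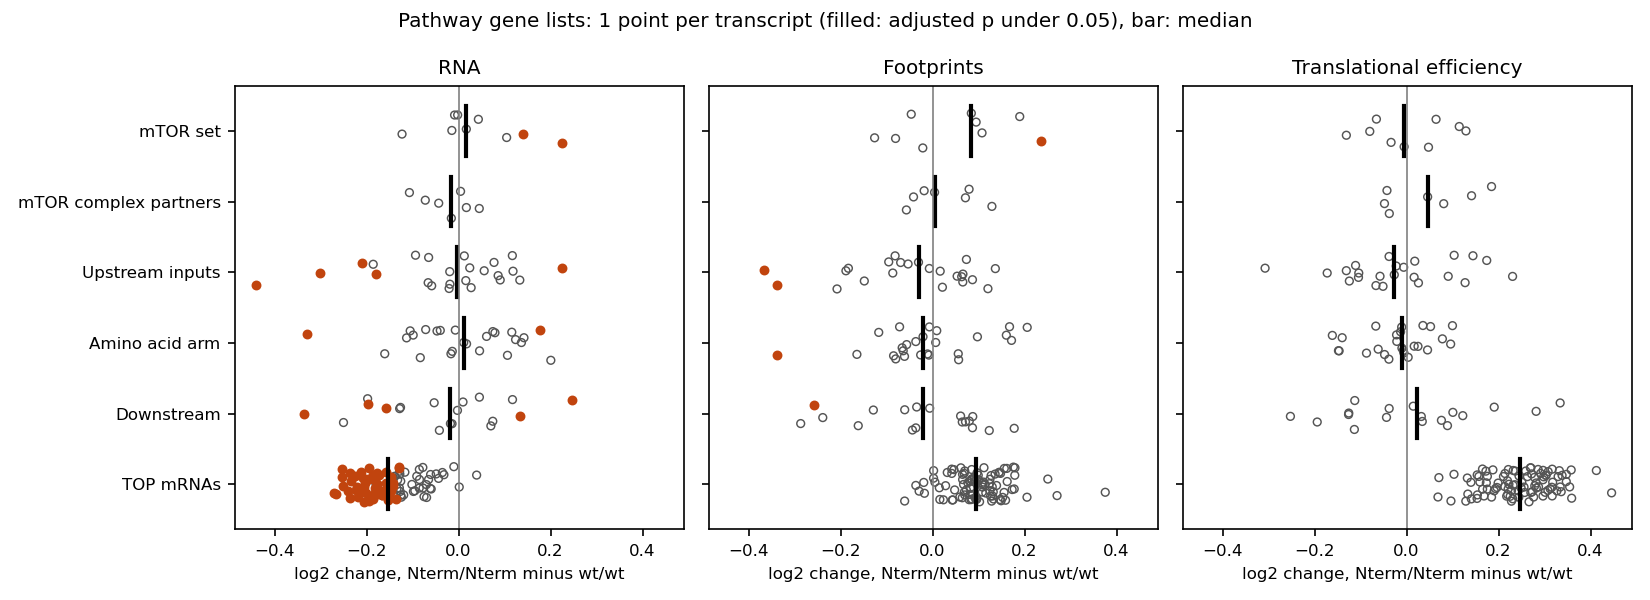
Log2 change, Nterm/Nterm minus wt/wt, in RNA, footprints and translational efficiency, with 1 point per transcript for the members (mTOR set), the 4 pathway lists and the TOP mRNAs, filled where the adjusted p was under 0.05, and a bar at the list median. The TOP median is -0.15 in RNA, 0.10 in footprints and 0.25 in efficiency, and the medians of the other lists lie between -0.03 and 0.08.

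The ratio of footprints to RNA within each genotype is given for the same lists, with no test between them. Of 7 complex partners, 3 had footprints higher than RNA and 3 lower in Nterm/Nterm, with the same counts in wt/wt. Of 23 upstream inputs, 8 were higher and 12 lower in Nterm/Nterm, and 7 higher and 12 lower in wt/wt. In the amino acid arm 16 of 25 genes had footprints higher than RNA and 6 lower in Nterm/Nterm, and 17 higher and 5 lower in wt/wt, with median log2 ratios of 0.45 in Nterm/Nterm and 0.57 in wt/wt. In the downstream list 6 of 18 were higher and 11 lower in Nterm/Nterm with the same counts in wt/wt and medians of -0.40 in Nterm/Nterm and -0.37 in wt/wt. Of 94 TOP mRNAs, 18 were higher and 64 lower in Nterm/Nterm, and 15 higher and 73 lower in wt/wt. Their medians were -0.39 in Nterm/Nterm and -0.61 in wt/wt. Over all transcripts 47.9% were higher and 32.4% lower in Nterm/Nterm, and 50.4% higher and 32% lower in wt/wt. The medians over all transcripts were 0.19 in Nterm/Nterm and 0.22 in wt/wt.

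Some of these values carry an uncertainty of counting. RefSeq names 3 pseudogenes after RHEB, 3 after EIF4EBP2 and 1 after LARP1, and no source used here says how reads shared with them were assigned. TSC2 overlaps the gene PKD1 and RICTOR overlaps OSMR in that annotation, and no source says whether the counting used the strand.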

How the data were processed

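The data are 12 libraries in 4 groups of 3, RNA-seq and Ribo-seq of Nterm/Nterm and wt/wt induced neurons. The deposited count table holds unnormalised whole-number counts per transcript. The genome build was GRCh37, per the submitters' processing notes, which also list, without roles, limma, edgeR, Salmon 1.4.0, Bowtie2 2.3.4.3, UMI-tools 1.0.1 and cutadapt 2.4. The authors' deposited table gives each transcript's mean ratio of footprints to RNA per genotype, its SD, the ratio of the means and an unadjusted p-value. Gene names came from that table, and groups came from sample titles.

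The counts went through edgeR 4.0.16 (R 4.3.3) with TMM scaling, filterByExpr, the two-sided quasi-likelihood F test and Benjamini-Hochberg adjustment over all transcripts at 0.05. For efficiency changes the assay-by-genotype interaction was tested over the 12 libraries, with TMM within each assay. Changes are relative to the other transcripts, since scaling removes a shared shift. CPM uses TMM-scaled library totals, and SE is the size of the change over the square root of F. Intervals of changes are at 95%. Fits were also run on simulated counts with known changes. The simulation used the same dispersion for every transcript and independent libraries, so it does not test the fits under the spread of these libraries.

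DESeq2 1.42.0, limma-voom 3.58.1, DESeq2 size factors, no filter, leaving out each library, a replicate block and the genotype tag were alternatives. Same-numbered RNA libraries of the genotypes deviated together from their group means (r = 0.113, 0.12 and 0.248), as did RNA and footprint libraries within Nterm/Nterm (r = 0.118, 0.238 and 0.339), so the numbers pair these by the rule that every r exceeds 0.1. Those of the genotypes' footprints (0.0364 to 0.231) and of the assays within wt/wt (0.0401 to 0.18) did not.

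The members and gene lists were chosen with earlier results of these data known. All members present were named, and from each pathway list the called genes, at most 6 per list and comparison. The letters ATGGCG and CACGTG were searched after the sequences were seen, and SESN2, PRKAA2 and PRKAB2 were named after their values were. The rule that names genes patterned like MTOR was not applied, since MTOR was not analysed here.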

Additional observations from a re-analysis of the deposited data

How the results depend on the processing

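With 3 libraries per group at these depths, efficiency intervals of the members reached 0.33 either way on the log2 scale. Transcripts called for RNA numbered 2624, and 4504 with the replicate block, where 1 member was lower. Leaving out 1 library gave 841 to 2851 calls for RNA, with 0 to 2 members higher, and 954 to 2045 for footprints, out of 1800, with 0 to 2 members higher. RNA calls fell to 841, 964 and 1729 without wt/wt libraries 1 and 2 and Nterm/Nterm library 3, and footprint calls to 954, 978 and 965 without the libraries of the same genotype and number. Transcripts called for efficiency numbered 3, and 37 in DESeq2, 6 with the replicate block and 4250 with the genotype tag for the footprint libraries, where 1 member was higher and 3 lower. That last setting sets each footprint library against RNA of the other genotype, so the RNA and footprint changes add in place of being subtracted. The block changed no call of a member for a change in footprints or efficiency between genotypes. Within Nterm/Nterm it added the call of RPTOR footprints over RNA, as given above. In the footprint and wt/wt fits the numbers did not pair the libraries, and number 1 did not correlate best with itself.

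Signs of values near 0 turned as follows, none of them called. RICTOR RNA became 2.72e-05 with DESeq2 size factors and 5.4e-05 in DESeq2, and RHEB efficiency 0.000209 without a filter. Leaving out 1 library, log2 RNA changes ran from -0.0326 to 0.00636 for RPTOR, -0.0337 to 0.0158 for RICTOR and -0.0535 to 0.048 for TSC2. Footprint changes ran from -0.10 to 0.0335 for RPS6KB1, -0.0122 to 0.156 for AKT1 and -0.176 to 0.051 for RB1CC1. Efficiency changes ran from -0.0709 to 0.00642 for RPTOR, -0.00662 to 0.0903 for LARP1, -0.0736 to 0.0401 for RHEB and -0.032 to 0.136 for AKT1, and among other pathway genes from -0.0726 to 0.0549 for RRAGD, -0.0647 to 0.0301 for FNIP2, -0.12 to 0.0673 for PRKAB1 and -0.0364 to 0.16 for PDCD4. The causes were not tested.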
